A study of Rattus norvegicus with 32 samples.

Results

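The 10 genes described here encode subunits of the BAF chromatin remodelling complex: the 4 BAF45 proteins (Dpf1, Dpf2, Dpf3 and Phf10), both BAF53 proteins (Actl6a and Actl6b), the CREST protein (Ss18l1), both alternative ATPases (Smarca2 and Smarca4) and Arid1b. They were taken by symbol from a count table of 28914 genes, all 10 were found, and all 10 passed the filter on low counts in every fit. RNA was sequenced from 4 brain regions of male adult Sprague-Dawley rats: Ammon's horn (CA) and the dentate gyrus (DG) of the hippocampus, the subventricular zone (SVZ) and the nucleus accumbens (NAc). Rats received 4 intraperitoneal injections, 2 h apart, of methamphetamine (METH, 10 mg/kg) or of saline (Sal, 1 mL/kg), with 4 samples per region and treatment and 32 in all. No genetic change separated the groups, and tissue was taken the day after the last injection. NAc and SVZ were punched and DG and CA were scooped out, so every sample was a mixture of cell types, in which fewer cells of a type and less RNA per cell cannot be told apart.

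BAF complexes use ATP to slide or evict nucleosomes and so open enhancers and promoters. Several of their positions are filled by alternative, mutually exclusive proteins. In neural progenitors the complex carries Phf10 or Dpf2 and Actl6a. As neurons leave the cell cycle these are replaced by Dpf1 or Dpf3 and Actl6b, while Ss18 gives way to Ss18l1. Either Smarca2 (BRM) or Smarca4 (BRG1) supplies the ATPase, and Arid1b or Arid1a the large DNA-binding subunit. The neuronal complex is known for its part in dendrite growth, synaptic plasticity and memory.

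In the rn6 annotation of the count files, Dpf1 lay at chr1:87248489-87258070 (plus strand), Dpf2 at chr1:221253747-221269042 (minus), Dpf3 at chr6:106721349-106971250 (minus) and Phf10 at chr1:56951518-56967895 (minus). Actl6a lay at chr2:119112513-119129751 (plus), Actl6b at chr12:22194618-22211080 (minus) and Ss18l1 at chr3:175426752-175445222 (plus). Smarca2 lay at chr1:244615821-244782706 (plus), Smarca4 at chr8:22648323-22739468 (plus) and Arid1b at chr1:45923222-46234874 (plus). Reads were counted over the exons without regard to strand. Exons of Phf10 overlap those of LOC100125364 and exons of Actl6a overlap those of Mrpl47, both on the opposite strand, so the counts of Phf10 and Actl6a carry that uncertainty.

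All 10 genes have a promoter of 300 bases in RefSeq (build GRCr8, 250 bases before the start to 50 after). Those of 5 members are shown, because Dpf3 stood apart between regions, Smarca2 relative to Smarca4 gave the lowest p of the ratios tested for METH, and Dpf1 and Actl6b are neuronal subunits that varied widely between libraries. Capitals mark every match, on either strand, to GGGCGG (the GC box), CCAAT (the CCAAT box), GGACAG (part of the RE1 site) and GCGCATGCG (the NRF1 site).
Dpf3, chr6:108856576-108856875, minus strand: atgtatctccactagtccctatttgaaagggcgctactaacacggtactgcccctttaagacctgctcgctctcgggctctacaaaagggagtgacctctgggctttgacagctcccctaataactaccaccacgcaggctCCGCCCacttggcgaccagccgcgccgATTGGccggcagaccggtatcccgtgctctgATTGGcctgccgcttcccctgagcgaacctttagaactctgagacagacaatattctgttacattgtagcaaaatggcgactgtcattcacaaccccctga
Smarca2, chr1:233617121-233617420, plus strand: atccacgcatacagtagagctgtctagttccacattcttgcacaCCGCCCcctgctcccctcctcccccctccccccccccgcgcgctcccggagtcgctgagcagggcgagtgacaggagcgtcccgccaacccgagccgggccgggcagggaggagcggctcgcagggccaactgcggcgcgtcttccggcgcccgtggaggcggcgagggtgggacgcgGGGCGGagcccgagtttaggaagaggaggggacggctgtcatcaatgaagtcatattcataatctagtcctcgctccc
Smarca4, chr8:28443569-28443868, plus strand: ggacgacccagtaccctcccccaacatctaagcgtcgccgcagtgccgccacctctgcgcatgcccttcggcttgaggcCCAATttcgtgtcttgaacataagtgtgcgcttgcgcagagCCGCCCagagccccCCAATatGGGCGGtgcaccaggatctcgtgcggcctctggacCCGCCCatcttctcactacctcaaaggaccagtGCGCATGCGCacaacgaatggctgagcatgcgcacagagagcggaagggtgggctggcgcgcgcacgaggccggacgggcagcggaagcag
Dpf1, chr1:93733592-93733891, plus strand: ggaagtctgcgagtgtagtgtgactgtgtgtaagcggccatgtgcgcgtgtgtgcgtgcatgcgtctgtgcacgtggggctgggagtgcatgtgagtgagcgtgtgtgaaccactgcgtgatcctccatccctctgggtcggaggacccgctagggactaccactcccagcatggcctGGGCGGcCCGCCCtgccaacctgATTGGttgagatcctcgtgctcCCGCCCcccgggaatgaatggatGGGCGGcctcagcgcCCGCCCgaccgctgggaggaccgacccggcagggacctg
Actl6b, chr12:24778102-24778401, minus strand: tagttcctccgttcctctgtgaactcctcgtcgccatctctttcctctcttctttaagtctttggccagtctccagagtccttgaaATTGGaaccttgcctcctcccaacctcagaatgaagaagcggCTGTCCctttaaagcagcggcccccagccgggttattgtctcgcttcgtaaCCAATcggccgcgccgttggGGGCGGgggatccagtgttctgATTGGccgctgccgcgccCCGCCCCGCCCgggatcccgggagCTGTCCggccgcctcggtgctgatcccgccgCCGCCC

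The GC box was present in the promoters of 9 of the 10 members, the exception being Dpf2, and in 33.1% of 33469 rat promoters of that length. The CCAAT box was in 7 members and 37.5% of promoters. The RE1 letters were in Actl6b alone among the members (21.7% of promoters), and the NRF1 letters were in Smarca4 alone (1.52%), as a pair of overlapping matches, because the site nearly reads the same on both strands. TGACGTCA (the CRE, 1.83%), GCGTGGGCG (the EGR site, 0.544%), CAGATG (an E-box, 16.6%) and TGACTCA (AP-1, 4.63%) were in none of the 10 windows. The GC content was 54.7% for Dpf3 and 86.7% for Phf10, the lowest and highest of the members. All members thus lay above the median of all promoters, 51.7%. The part of GC content in the GC box matches was not tested.

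Total counts ran from 11094002 to 21869773 per library, and no pair of libraries of a group agreed within sampling noise. By their markers of neurons and oligodendrocytes, 5 libraries stood apart from their group. In NAc METH 3 the summed CPM (counts scaled to the size of the library) of 7 medium spiny neuron markers were 217, against 1462 to 7649 in the other NAc libraries, and Drd1 was at 7.15 CPM. In DG Sal 3 the same sum was 1716, against 100 to 372 in the other DG libraries. Its sum of granule neuron markers, 173, lay within theirs, but the marker Calb1 gave 135 CPM of it. Prox1 (29.4 CPM) and C1ql2 (7.07 CPM) lay within the ranges of the other DG libraries. Neurod1, at 0.25 CPM, lay far below theirs (14.35 to 66.44 CPM), and Dsp, at 0.95 CPM, just below. In SVZ Sal 1, SVZ METH 2 and SVZ METH 4 the sum of 6 oligodendrocyte markers was 18880 to 27420, against 3853 to 9376 in the other SVZ libraries. Choroid plexus markers set 4 more libraries apart, with sums of 7990 CPM in SVZ METH 3, 6059 in DG METH 3, 2038 in DG Sal 4 and 2198 in CA Sal 2, where the other libraries of these regions reached 384.4 CPM at most. Results are also given without the 5 libraries, or without all 9, a choice made after seeing the data. DG and CA were not separated by the 6 granule neuron markers, whose sum was 110 to 551 in DG and 131 to 593 in CA. In the file headers the 4 SVZ METH libraries carry only 2 library numbers. They may come from 2 rats, and tests within the SVZ may then count more units than animals. The headers of DG Sal 1 and 2 carry numbers that NAc and CA give to METH rats, and those of DG METH 1 and 2 numbers that they give to saline rats. NAc, DG and CA carry the same 8 numbers, so these regions may come from the same rats, and tests over several regions then count more units than animals.

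The levels of the members in saline-treated rats were compared per kilobase of exon. Smarca2 and Smarca4 were the highest, at 49.3 ± 15.6 and 39.9 ± 5.06 CPM per kb (SD, n = 16), and Dpf3 and Actl6a the lowest, at 3.63 ± 2.23 and 4.19 ± 0.795 CPM per kb. The other 6 members lay between, from Phf10 up to Dpf1 at 29.7 CPM per kb. The neuronal Actl6b thus stood above its progenitor counterpart Actl6a in every region, by 4.19-fold in SVZ and 6.83-fold in CA on the scale of reads per kb. Ss18l1 stood above Ss18 by 1.67-fold in SVZ and 2.09-fold in NAc. Phf10 varied least over all 32 libraries, with a coefficient of variation of 8.21%, and Dpf3 and Dpf1 varied most, at 58.2% and 40.7%.

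**Figure D1:**
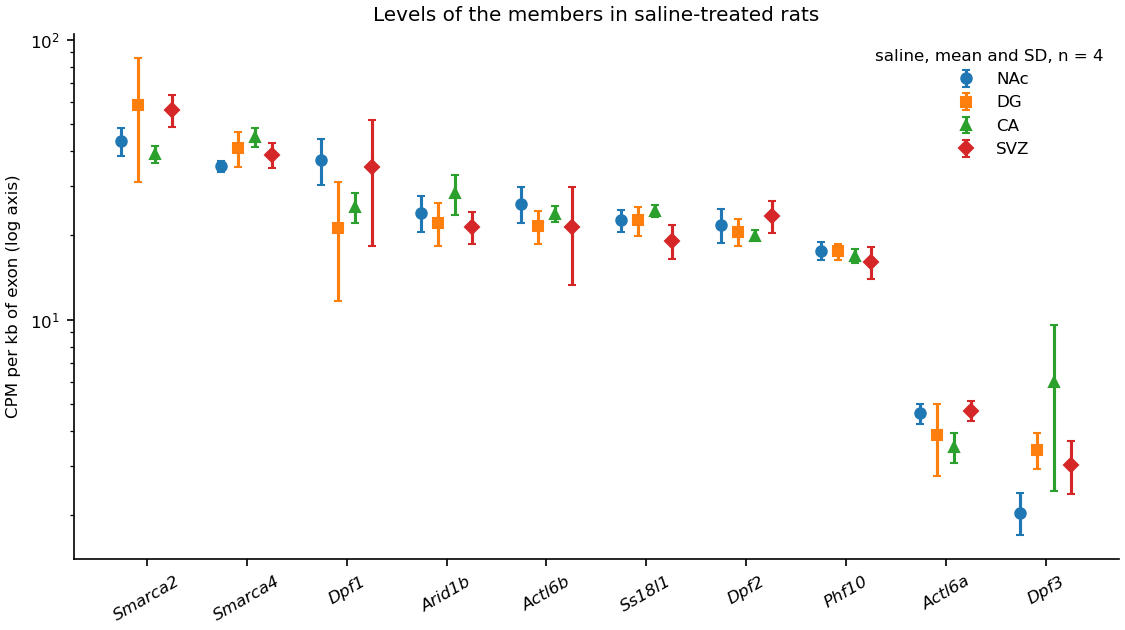
Levels of the 10 members in saline-treated rats, in CPM per kilobase of exon on a log axis, as mean and SD of 4 libraries per region. Smarca2 and Smarca4 are highest, Actl6a and Dpf3 lowest, and Dpf3 is the member whose regions lie farthest apart, lowest in NAc, at 2.05 CPM per kb, and highest in CA.

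Dpf3, a BAF45 subunit of neurons and muscle, was the only member past the adjusted threshold between the hippocampal regions and the others in saline-treated rats. In CPM, Dpf3 read 2.39, 2.80, 2.00 and 2.96 in NAc Sal, and 3.30, 3.04, 4.89 and 3.85 in SVZ Sal. It read 5.15, 3.72, 4.17 and 4.02 in DG Sal, and 13.8, 5.22, 6.85 and 3.87 in CA Sal. All DG and CA libraries were above all NAc libraries, but both overlapped the SVZ libraries, and CA Sal 1 was far above the rest. The mean of DG and CA was 1.78-fold that of NAc and SVZ (log2 fold change 0.83 ± 0.23 SE, adjusted p = 0.0288, edgeR quasi-likelihood test).

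In that comparison 1 of the 10 members passed an adjusted p of 0.05, while 12.1% of the 15515 genes tested did. None passed an adjusted p of 0.01 with over 2-fold (0.999% of genes). At an unadjusted p of 0.05 there were 5 members, beside 29.6% of genes. Besides Dpf3 these were Smarca4, higher in the hippocampal regions (0.18 ± 0.07 SE, adjusted p = 0.119), and Dpf1 (-0.67 ± 0.26, adjusted p = 0.102), Dpf2 (-0.18 ± 0.08, adjusted p = 0.16) and Actl6a (-0.37 ± 0.13, adjusted p = 0.0724), all lower there on the log2 scale. The Dpf3 call was lost when NAc Sal 1, NAc Sal 3, DG Sal 1 or SVZ Sal 2 was left out (log2 fold change 0.78 to 0.81). It was also lost with the replicate number as a block (0.77, adjusted p = 0.0515) and with the sequencing run as a term (0.78, adjusted p = 0.18). With the run term 0% of genes passed, and it cannot separate region from run here, because the SVZ had a run of its own. Without the 5 libraries, 4 members and 27.6% of genes passed: Dpf3 (0.80, adjusted p = 0.035), Smarca4 (0.25, adjusted p = 0.0112), Dpf1 (-0.93, adjusted p = 0.00355) and Actl6a (-0.42, adjusted p = 0.043). The same 4 passed without all 9 libraries, where 29.1% of genes did.

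When single regions were compared, Dpf3 again gave the calls. It was lower in NAc than in CA (log2 fold change -1.51 ± 0.33 SE, adjusted p = 0.0298), the only one of 60 tests of members in pairs of regions to pass an adjusted p of 0.05, where 3.08% of all tests passed. That call was lost without NAc Sal 1, 2 or 3, CA Sal 1 or CA Sal 3, and with the sequencing run as a term. The log2 fold change was -1.03 without CA Sal 1, -0.58 with the run term, and -1.42 to -1.57 in the other cases. The order of Dpf3 was CA, DG, SVZ and NAc, and no neighbours in it differed (adjusted p 0.493 to 0.835). In CA against the mean of the other 3 regions Dpf3 was higher by 1.08 ± 0.24 SE on the log2 scale (adjusted p = 0.0225), 1 of 40 such tests to pass 0.05, beside 3.01% of all tests. That call was lost without CA Sal 1 (log2 fold change 0.60, adjusted p = 0.144) or CA Sal 3 (1.12, adjusted p = 0.0748). It was also lost with the sequencing run as a term (0.41, adjusted p = 0.74), where 0% of genes passed. The run term cannot separate the SVZ from its own run. None of the 40 passed an adjusted p of 0.01 with over 2-fold (0.0822% of all tests). Before adjustment edgeR put 8 of them below 0.05, beside 18.2% of all tests. DESeq2 called 1 at the stricter rule, Dpf3 in CA (1.16% of all tests), and 2 at an adjusted p of 0.05 (6.42%), the second being Ss18l1, lower in SVZ (-0.28 ± 0.10 SE, adjusted p = 0.0357).

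METH was compared with saline within each region to ask which members responded to the drug. No member was called in NAc, DG, CA or SVZ at an adjusted p of 0.01 with over 1.5-fold, and 0% of genes were. At an unadjusted p of 0.05, edgeR gave 0 of 10 members in NAc (3.39% of genes), 3 of 10 in DG (12.8%), 0 of 10 in CA (7.16%) and 0 of 10 in SVZ (2.58%). The 3 in DG were Dpf3, Arid1b and Smarca2. DESeq2 called no member either at the same adjusted p and fold, where it called 0.0203% of genes in NAc, 1.24% in DG, 0.0684% in CA and 0.0128% in SVZ. At an adjusted p of 0.05 it passed Dpf3 in DG alone, beside 3.36% of genes there. Over the 10 members the median log2 fold change was 0.04 in NAc, -0.02 in DG, -0.02 in CA and -0.06 in SVZ, beside medians of 0.03, -0.01, 0.01 and 0.02 over all genes tested.

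**Figure D2:**
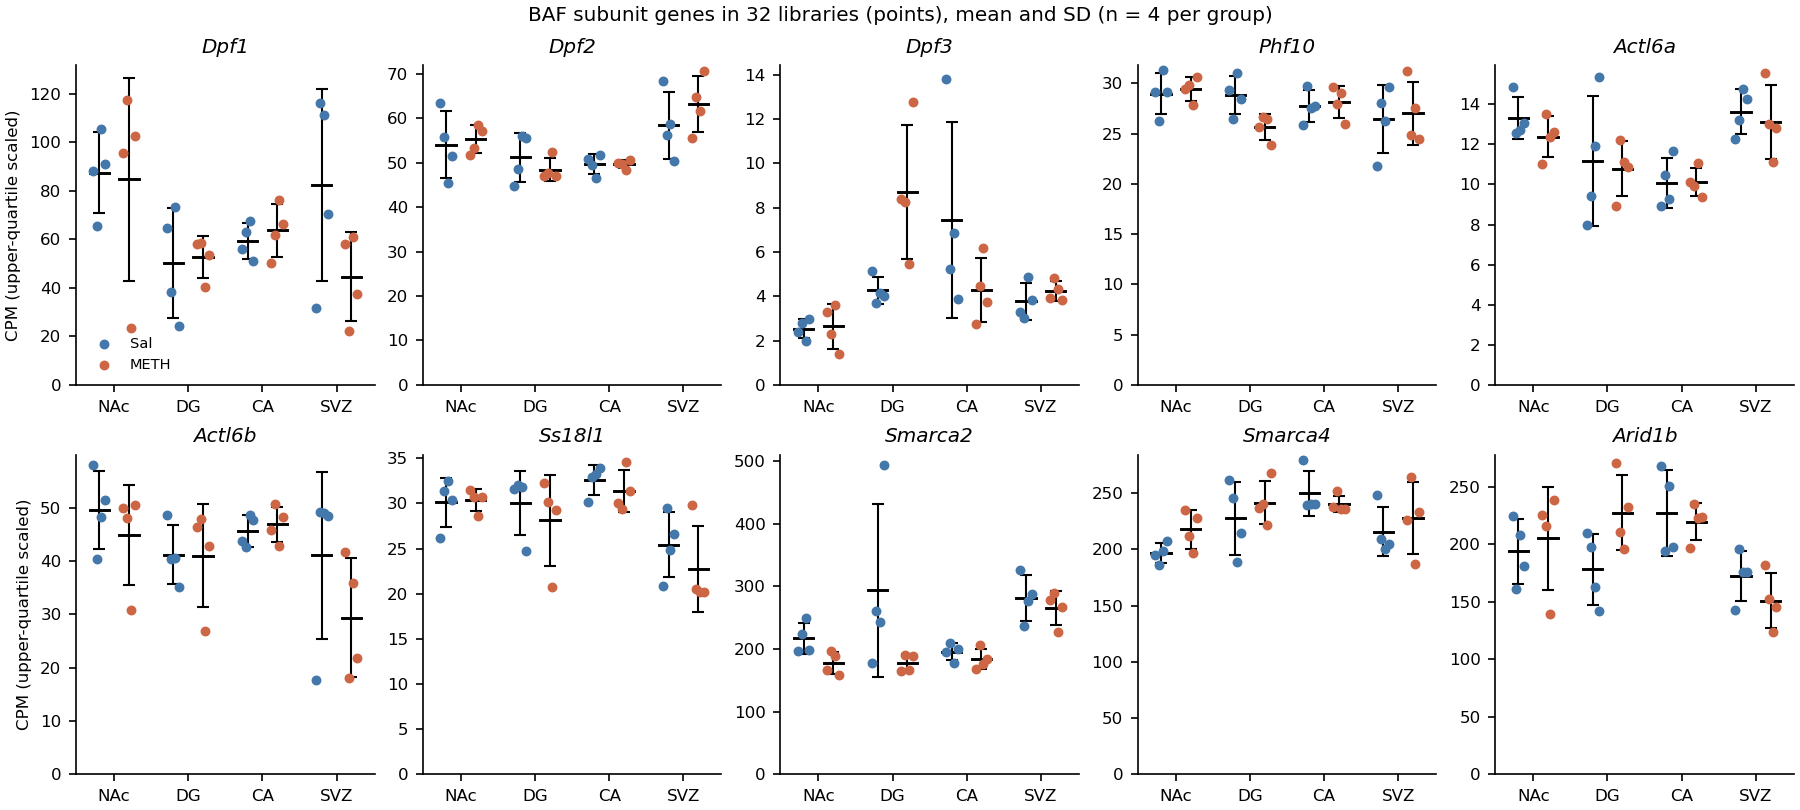
CPM of each member in the 32 libraries, by region, for saline (blue) and METH (orange), with the mean and SD of the 4 libraries of each group. The groups overlap in all panels except Dpf3 in DG, where METH is higher, and Smarca2 in NAc, where METH is lower.

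Among the BAF45 genes, Dpf3 gave the largest difference. In DG it read 8.37, 8.24, 5.47 and 12.8 CPM after METH, and 5.15, 3.72, 4.17 and 4.02 CPM after saline. The groups did not overlap, which held for 1 of the 10 members in DG and for 6.55% of genes. The log2 fold change was 1.04 ± 0.26 (SE, 95% interval 0.46 to 1.62), with an adjusted p of 0.194 in edgeR. This difference depends on the labels of DG replicates 1 and 2, whose header numbers are those of the other treatment in NAc and CA. Read by header number, Dpf3 would average 6.20 CPM after saline (4.02 to 8.37) and 6.78 CPM after METH (3.72 to 12.8), which overlap. The adjusted p under the alternatives ran from 0.0202 with DESeq2 to 0.736 without DG Sal 1, DG Sal 2, DG METH 1 and DG METH 2.

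The sum of the granule neuron markers moved with Dpf3 in part. It was 551, 432, 110 and 366 CPM in DG METH and 310, 127, 173 and 171 CPM in DG Sal. CA Sal 1, the library with the highest Dpf3, had 431. DG METH 3 had the lowest sum of its group, below every DG Sal library. Its Dpf3 was also the lowest of its group, but above every DG Sal library. Single markers differed: Prox1 was 57.7 to 315 CPM in DG METH and 27.1 to 155 CPM in DG Sal. Calb1 was 23.5 to 97.1 CPM in DG METH and 15.5 to 135 CPM in DG Sal. Sequencing runs, as the headers name them, were shared by both treatments in DG only for DG METH 1, DG METH 2 and DG Sal 3, where Dpf3 was 8.37, 8.24 and 4.17 CPM. With the run as a term the log2 fold change was 0.97 ± 0.51 (SE, adjusted p = 0.563). That estimate rests on the libraries of the shared run. DG Sal 3, the only saline library among them, stood apart by its medium spiny neuron markers. DG METH 1 and 2 carry the header numbers of saline rats. The part of the markers in the Dpf3 difference was not tested.

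In CA, Dpf3 read 2.75, 4.48, 6.18 and 3.75 CPM after METH against 13.8, 5.22, 6.85 and 3.87 CPM after saline. The groups overlapped and the log2 fold change was -0.79 ± 0.40 (SE, adjusted p = 0.715), which became -0.30 ± 0.31 without CA Sal 1. In NAc and SVZ the differences were 0.07 ± 0.31 and 0.18 ± 0.20. A test of whether the METH effect on Dpf3 differed between the 4 regions gave an adjusted p of 0.367 in edgeR. Dpf3 was the only member with an unadjusted p under 0.05 in that test, which 7.74% of genes reached. At an adjusted p of 0.05 it called 0 of 10 members in edgeR, beside 0.0062% of genes, and 0 of 10 in DESeq2, beside 0.571%.

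The neuronal subunit Dpf1 showed the widest spread in SVZ and NAc. In SVZ it read 58.1, 22.0, 61.0 and 37.4 CPM after METH against 31.7, 116, 111 and 70.6 CPM after saline (log2 fold change -0.86 ± 0.46 SE, adjusted p = 0.979). The 3 oligodendrocyte-rich libraries, with 22.0, 37.4 and 31.7 CPM, were the lowest of their groups. In NAc, METH 3 read 23.3 CPM, while the other 7 libraries read 65.2 to 117 CPM. The medium spiny markers were lowest in the same NAc library. Dpf2, found in most BAF complexes, and Phf10, of progenitor BAF and PBAF, had METH differences of at most 0.16 on the log2 scale in any region, the largest being Phf10 in DG at -0.16 ± 0.10 (SE, 95% interval -0.38 to 0.07).

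**Figure D3:**
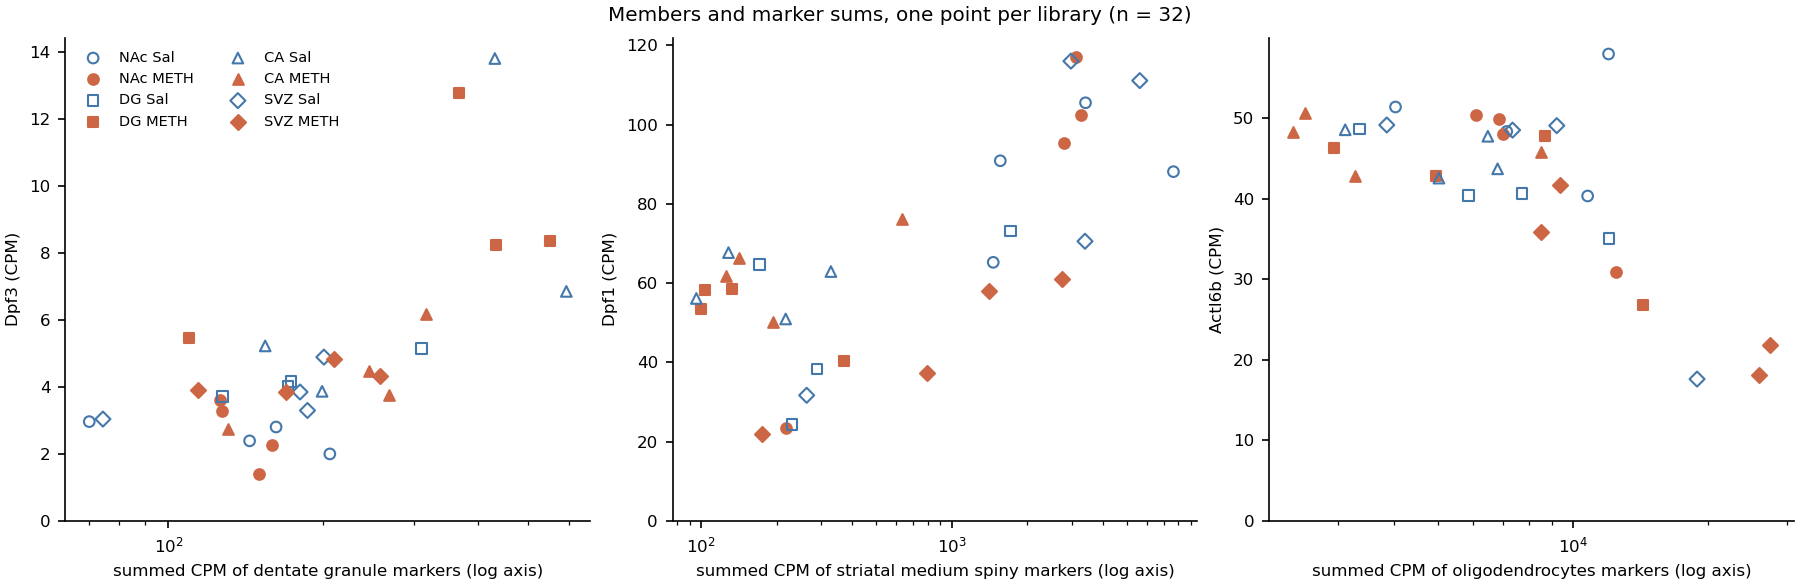
CPM of Dpf3, Dpf1 and Actl6b against the summed CPM (log axis) of granule neuron, medium spiny neuron and oligodendrocyte markers, 1 point per library, with region by shape and treatment by colour. The 5 libraries with the highest granule marker sums hold the 5 highest Dpf3 values, the NAc library with the lowest medium spiny sum has the lowest Dpf1 of its region, and the 3 SVZ libraries with most oligodendrocyte RNA have the lowest Actl6b.

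Actl6b, the neuronal BAF53, read 41.7, 18.1, 35.8 and 21.8 CPM in SVZ METH and 17.6, 49.2, 49.1 and 48.5 CPM in SVZ Sal. SVZ Sal 1 was the exception among the saline libraries, and the log2 fold change was -0.47 ± 0.39 (SE, adjusted p = 0.979). In the other regions its differences were between -0.12 and 0.04. Actl6a, of progenitors, had differences between -0.08 and 0.01 over the 4 regions, and its 95% interval was widest in DG, at -0.58 to 0.48. Ss18l1, a calcium-responsive co-activator in neurons, had differences between -0.15 and 0.04, and its lowest libraries, at 20.2 to 20.8 CPM, were SVZ METH 2, 3 and 4, SVZ Sal 1 and DG METH 3.

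**Figure D4:**
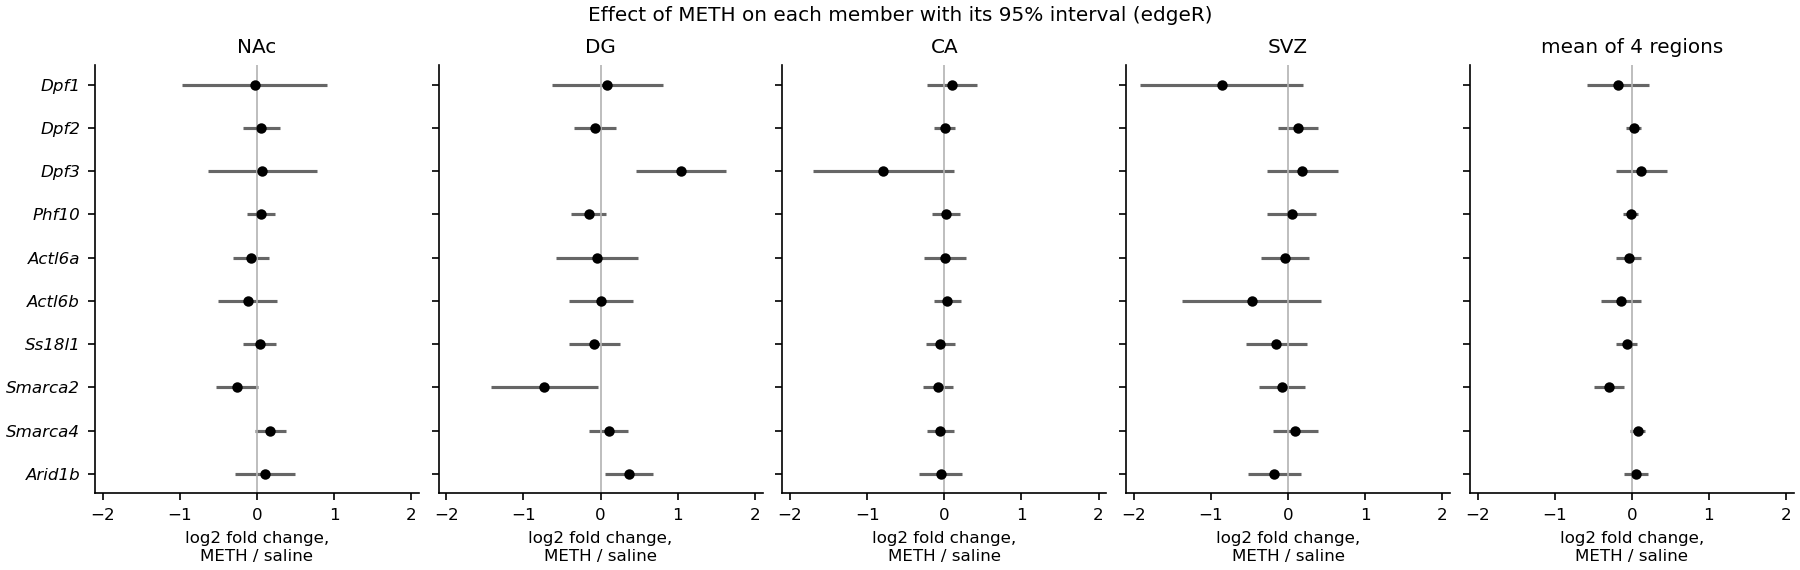
Log2 fold change of METH over saline for each member in each region and as the mean of the 4 regions, with 95% intervals from edgeR. The intervals that leave out 0 are those of Dpf3, Smarca2 and Arid1b in DG and of Smarca2 in the mean of the regions, none of which passed the adjusted threshold.

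Smarca2, the BRM ATPase, had a value below 0 in all 4 regions. In NAc it read 167, 196.4, 188 and 159 CPM after METH and 196.6, 224, 249 and 198 CPM after saline, so the groups did not overlap, though the nearest libraries were almost equal. That held for 1 of the 10 members and for 2.42% of genes in NAc. In CA (4.31% of genes) and SVZ (1.68%) it held for no member. The NAc log2 fold change was -0.26 ± 0.12 (SE, adjusted p = 0.9995).

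In DG, Smarca2 read 165, 190, 167 and 189 CPM after METH and 177, 261, 244 and 494 CPM after saline (log2 fold change -0.73 ± 0.30 SE, adjusted p = 0.372). Read by header number the means would be 198.5 CPM after METH and 273 CPM after saline. DG Sal 4 was far above the others, and leaving it out gave -0.32 ± 0.15. Its choroid plexus marker sum was 2038 CPM, while DG METH 3, with 6059 CPM, had Smarca2 at 167 CPM, and the part of these cells was not tested. In CA and SVZ the differences were -0.08 ± 0.09 and -0.08 ± 0.13. Averaged over the regions the log2 fold change was -0.29 ± 0.09 (SE, 95% interval -0.48 to -0.10), with an adjusted p of 0.516. It stayed below 0 in all 44 alternatives, with adjusted p from 0.106 to 0.9998, and was -0.14 ± 0.08 without the 9 libraries.

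Smarca4, the BRG1 ATPase, had average log2 fold change 0.07 ± 0.05 (SE), and 0.17, 0.10, -0.05 and 0.09 in NAc, DG, CA and SVZ. On the average over regions edgeR called 0 of 10 members and 0% of genes at an adjusted p of 0.01 with over 1.5-fold, and DESeq2 also called 0 members, beside 0.0062% of genes. At an unadjusted p of 0.05 there was 1 member, Smarca2, beside 7.83% of genes.

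The ratio of Smarca2 to Smarca4 within a library needs no scaling between libraries, and was 1 of 7 ratios of alternative subunits compared. On the log2 scale of reads per kb it was -0.34, 0.04, 0.09 and -0.37 in NAc METH and 0.16, 0.42, 0.48 and 0.09 in NAc Sal. It was -0.37, -0.19, -0.26 and -0.35 in DG METH and -0.41, 0.24, 0.52 and 1.36 in DG Sal. Read by header number, the ratio would average -0.19 in DG after METH (-0.41 to 0.24) and 0.33 after saline (-0.37 to 1.36). In SVZ it was 0.45, 0.28, 0.43 and 0.34 after METH and 0.55, 0.33, 0.62 and 0.65 after saline. The groups overlapped in each region, and in CA their means lay close, at -0.24 ± 0.09 and -0.20 ± 0.15 (SD, n = 4).

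Averaged over the 4 regions the log2 ratio differed by -0.34 after METH, lower in 4 of 4 regions and with 15 of 16 METH libraries below the saline mean of their region. An exact permutation test within regions, two-sided, gave p = 0.00128, or 0.00894 adjusted over the 7 ratios. Within single regions no ratio passed, and the smallest p that 4 against 4 allows is 0.0286 before adjustment. The test treats all libraries as independent, though regions share header numbers, as do libraries of SVZ METH. In NAc and DG some sequencing runs held libraries of a single treatment only, and in CA the merged label marked saline libraries only. Treatment and run were therefore partly tied in these regions and cannot be fully told apart. The call held in 39 of 41 alternatives, 32 of which left out single libraries, and was lost in the others. No alternative for the ratios had a term for the run. Without the 9 libraries the difference was -0.20 (adjusted p = 0.299). With header numbers in place of libraries as the units, NAc and CA permuted together and DG left out, it was -0.21 (adjusted p = 0.153), and with DG permuted apart it was -0.34 (adjusted p = 0.0174). The sum of the astrocyte markers also moved with treatment, at 2520 to 2712 CPM in NAc Sal and 2885 to 4134 in NAc METH. It was 2387 to 3095 in DG Sal and 3375 to 3686 in DG METH. Its ranges overlapped in CA (2754 to 3751 and 3312 to 4002) and SVZ (2564 to 2960 and 2645 to 3218). In NAc, Gfap (226 to 278 CPM after saline, 352 to 1046 after METH) and Slc1a3 (567 to 625, 748 to 835) were higher in every METH library. The other markers overlapped there, with Gja1 running lower after METH (452 to 587, 419 to 524). The part of the astrocyte markers in the ratio was not tested.

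**Figure D5:**
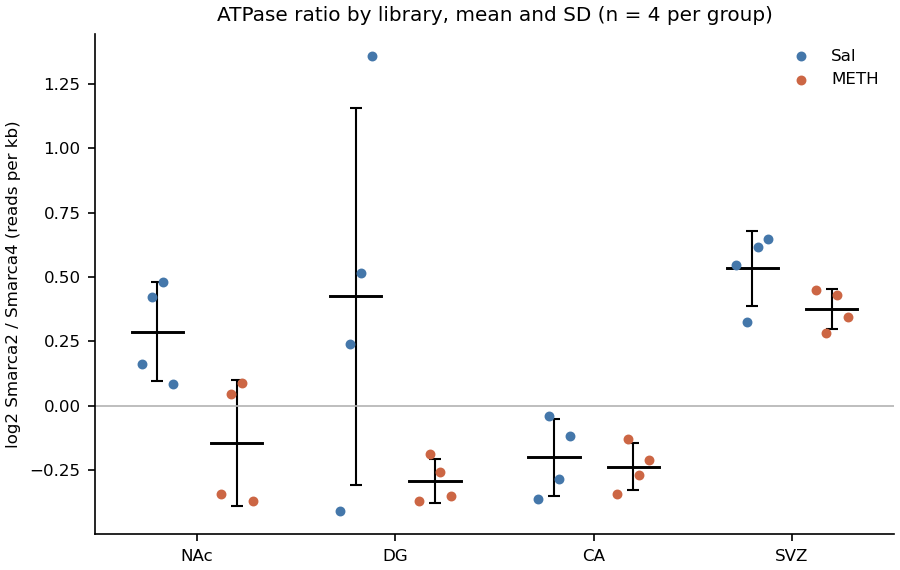
Log2 ratio of Smarca2 to Smarca4 reads per kilobase in each library, by region and treatment, with the mean and SD of 4 libraries. By sample label, the METH mean lies below the saline mean in all 4 regions, by 0.43 in NAc, 0.72 in DG, 0.04 in CA and 0.16 in SVZ.

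The other ratios gave no call for METH averaged over regions. The one with the next lowest p was Ss18l1 to Ss18, at -0.24 (exact permutation test, p = 0.04, adjusted p = 0.14), with values of -0.49 in DG and -0.47 in SVZ and 0.00 and 0.01 in NAc and CA. Arid1b to Arid1a differed by 0.61 in DG, where the groups did not overlap (-0.36 to 0.05 after METH and -0.98 to -0.56 after saline), with the smallest p the exact permutation test allows, 0.0286, and an adjusted p of 0.2. This separation too rests on the labels of DG replicates 1 and 2: read by header number the means would be -0.40 after METH (-0.65 to -0.02) and -0.55 after saline (-0.98 to 0.05), which overlap. Between regions in saline-treated rats, Dpf3 to Dpf2 was 0.94 higher on the log2 scale in the 8 hippocampal libraries than in the 8 others (exact permutation test, p = 0.00233, adjusted p = 0.0163). The other 6 ratios did not pass (adjusted p 0.282 to 0.794), while without the 9 libraries 5 of the 7 did.

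Arid1b, a subunit of canonical BAF, read 271, 211, 196 and 232 CPM in DG METH and 210, 198, 163 and 142 CPM in DG Sal. The groups overlapped, with means of 208.7 and 196.7 CPM if read by header number, and the log2 fold change was 0.37 ± 0.14 (SE, 95% interval 0.06 to 0.68, adjusted p = 0.318). Its differences in NAc, CA and SVZ were 0.11, -0.05 and -0.18, and a test of whether its METH effect differed between regions gave an adjusted p of 0.745 in edgeR. Its lowest library was SVZ METH 3 at 123 CPM, and its highest DG METH 1 at 271 CPM.

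Another 20 genes of BAF complexes were listed beside the members. Smarcb1, a core subunit, is listed at 0 in all 32 libraries and was not tested, and the symbol lies on an unplaced scaffold in this annotation. In edgeR none of the other 19 passed an adjusted p of 0.05 for METH in any region, on average or for a difference between regions, and in DESeq2 Arid1a in DG did (-0.24 ± 0.07 SE, adjusted p = 0.02395). At an unadjusted p of 0.05 there were 3 of 19 in DG (12.8% of genes), 1 of 19 in SVZ (2.58%) and 2 of 19 on average (7.83%). Ss18 was 0.38 ± 0.14 (SE) in DG and 0.31 ± 0.13 in SVZ, and Arid1a, the counterpart of Arid1b, was -0.23 ± 0.08 in DG. The third in DG was Smarcd1 (-0.30 ± 0.12), and the 2 on average were Smarcd1 (-0.16 ± 0.06) and Ss18 (0.17 ± 0.07). In SVZ the second lowest p after Ss18 was that of Smarcd1 (-0.25 ± 0.11). The lowest p values elsewhere were those of Smarcd2 (0.14 ± 0.08) and Bicral (0.10 ± 0.08) in NAc, and Smarcd3 (0.39 ± 0.21) and Bcl7a (-0.15 ± 0.10) in CA. Between the hippocampal regions and the others, 2 of 19 passed an adjusted p of 0.05, beside 12.1% of genes: the structural subunits Smarcd3 (-0.90 ± 0.19 SE, adjusted p = 0.0126) and Smarcd1 (-0.37 ± 0.10, adjusted p = 0.0279) were lower in the hippocampus. With the sequencing run as a term neither passed, at -0.85 for Smarcd3 and -0.42 for Smarcd1. Smarcd3 passed in the other 24 of 25 alternatives and Smarcd1 in 17. The count for the 19 genes was 1 with the replicate block (11.5% of genes), 5 with DESeq2 (17.4%) and 4 with 2 RUVr factors (25.1%). It was 7 without the 5 libraries (27.6%) and 6 without the 9 (29.1%). Bcl7a was higher in CA than in the other regions (0.28 ± 0.07, adjusted p = 0.0328) and Bicral lower in SVZ (-0.31 ± 0.08, adjusted p = 0.038), the only calls for the 19 genes in single regions against the other 3, where 3.01% of all tests passed. The count of such calls was 1 with the replicate block (2.01%) and 0 with no filter beyond 1 read (1.1%). It was 4 with DESeq2 (6.42%), 8 with 2 RUVr factors (11.1%), 10 without the 5 libraries (8.95%) and 9 without the 9 (8.27%). The Bcl7a call held in 16 of 25 alternatives and the Bicral call in 11. With the run term neither did, at log2 fold changes of 0.28 and -0.35. The SVZ had a run of its own, so that term cannot separate region from run in these comparisons. Brd9, of the non-canonical complex, was lower in CA than in SVZ (-0.31 ± 0.09, adjusted p = 0.0388), as were Smarcd1 (-0.47) and Smarcd3 (-0.87), while Bcl7a was higher (0.31). Smarcd3 was also higher in NAc than in CA (adjusted p = 0.0412), which made 5 calls for the 19 genes in pairs of regions, where 3.08% of all tests passed. These 5 calls held in 10 to 16 of 25 alternatives each. The count for the 19 genes was 2 with TMM, 3 with the replicate block, and 0 with no filter beyond 1 read and with the run term. It was 10 with DESeq2 (6.23% of all tests), 12 with 2 RUVr factors (9.37%), 16 without the 5 libraries (9.48%) and 11 without the 9 (8.9%).

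For each member, the non-member genes with the most similar pattern were found by the Pearson r of log2(CPM + 1) over the 32 libraries among 16112 genes, which share depth, region and tissue make-up. For Dpf3 these were Homer3 (0.87) and Maml2 (0.87), for Dpf1 Cdk17 (0.94) and Adra2c (0.93), and for Dpf2 LOC100360087 (0.88) and Tbc1d12 (0.87). For Actl6b they were Cacnb1 (0.96) and Celf5 (0.96), for Actl6a Per3 (0.85) and Tmem268 (0.84), and for Ss18l1 Paxip1 (0.91) and Huwe1 (0.88). Smarca2 was most like Reep4 (0.82) and Myh7b (0.81), Smarca4 like Mark4 (0.87) and Apc (0.87), Arid1b like AABR07024542.1 (0.89) and Ppp1r13b (0.89), and Phf10 like Kmt2a (0.82) and AABR07058539.1 (0.81).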

How the data were processed

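The authors trimmed paired-end reads of rRNA-depleted total RNA with cutadapt 2.7, checked them with FastQC 0.11.4, aligned them to rn6 with STAR 2.5.2b and counted them per gene symbol with featureCounts 1.6.3, unstranded, at a mapping quality of at least 10. The file headers name an Ensembl Rnor_6.0 annotation, while the published methods name a UCSC one, and the gene positions used here are those in the files. The deposited values used here are these raw counts, 1 file per sample. Libraries were sequenced in batches, and run names were read from the file headers. Every SVZ library came from a run that held no other region, so comparisons of the SVZ with other regions cannot separate region from run. CA Sal 1 and CA Sal 2 alone carry a merged label in place of a run name. A combined count matrix was not used.

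Comparisons used edgeR 4.0.16 (R 4.3.3; quasi-likelihood test, upper-quartile normalization, filterByExpr, Benjamini-Hochberg adjustment over all genes tested): METH against saline within each region (8 samples), averaged over and differing between regions (32 samples), and between regions in saline samples (16 samples). Standard errors are the log2 fold change divided by the root of F. CPM are counts relative to the upper-quartile scaled library size. Ratios were tested by exact two-sided permutation (70 assignments per region, 24010000 over 4 regions, 12870 for saline samples). The code was tested on simulated data. Alternatives were TMM, DESeq2 1.42.0, other filters, a replicate block, 2 RUVr factors written from the published steps, leaving out each library, and others named in the closing section. The number of RUVr factors the authors used is not given in the sources used here, so the reported tests used none.

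All 10 members, and by the rule for named genes the ratio denominators, other BAF genes with an adjusted p under 0.05 or else the 2 lowest p, and the 2 most similar genes, are named. The members, gene lists and tests were chosen with earlier results of these data known. The labels name no animals. Header numbers shared by NAc, DG and CA may mark shared rats, without agreeing on the treatment of DG replicates 1 and 2, so p-values measure the spread between samples. Promoters come from RefSeq (GRCr8), coordinates of genes from the files (rn6), and the 2 builds were not mixed. Counts limit the precision: Dpf3 had 21 to 238 reads per library, the other members 99 or more.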

Additional observations from a re-analysis of the deposited data

Results flagged for a closer look

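In 136 groups of 4 libraries (80 for the members and 56 for the ratios), 13 had 1 library far from the other 3 by Dixon's test, where chance gives about 1 in 20. The part of tissue make-up in these values was not tested.

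Of the neuronal subunits, Actl6b read 30.9 CPM in NAc METH 3 (the others 48.0 to 50.5) and 17.6 CPM in SVZ Sal 1 (48.5 to 49.2). Ss18l1 read 24.8 CPM in DG Sal 4 (31.6 to 32) and 29.9 CPM in SVZ METH 1 (20.2 to 20.5). Smarca4 read 280 CPM in CA Sal 1 (239 to 240) and 252 CPM in CA METH 2 (236 to 238), and Dpf2 read 52.3 CPM in DG METH 3 (46.9 to 47.6).

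On the log2 scale, Actl6b to Actl6a was 2.27 in NAc Sal 2 (the others 2.52 to 2.56) and 1.11 in SVZ Sal 1 (2.32 to 2.48). Ss18l1 to Ss18 was -0.0331 in DG METH 3 (0.519 to 0.58), and Dpf3 to Dpf2 was -2.12 in DG Sal 1 (-2.79 to -2.7). In NAc METH 3, Dpf1 to Dpf2 was -1.24 (0.925 to 1.22) and Dpf1 plus Dpf3 to Phf10 plus Dpf2 was -1.66 (0.105 to 0.384). NAc METH 3 and SVZ Sal 1 are among the 5 libraries whose neuron or oligodendrocyte markers stood apart, and DG Sal 4 and DG METH 3 among the 4 with high choroid plexus markers.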

How the results depend on the processing

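No member was called for METH in any region, on average or for a difference between regions, under any setting of the main thresholds, and at an adjusted p under 0.05 with no fold threshold the edgeR counts were 0 as well (DESeq2 passed Dpf3 in DG, adjusted p = 0.0202). Of the differences larger than their standard error, that of Ss18l1 averaged over the regions changed sign, from -0.07 to 0.03024 without 9 libraries. Shares of all genes or tests called stand in parentheses. Between the hippocampal regions and the others, 1 member was called as reported (12.1%), 0 at an adjusted p under 0.01 with over 2-fold (0.999%), 2 with DESeq2 (17.4%), 0 with the replicate block (11.5%) and 4 with 2 RUVr factors (25.1%). Added after seeing the data, the counts were 4 without the 5 libraries whose neuron or oligodendrocyte markers stand apart (27.6%), 4 without these and the 4 rich in choroid plexus markers (29.1%) and 0 with the sequencing run as a term (0%). Leaving out single libraries gave 0 to 3 (6.33% to 19.3%), the most without DG Sal 3 (19.2%) or SVZ Sal 1 (19.3%). For pairs of regions, 1 as reported (3.08%), the counts were 0 at the stricter threshold (0.139%), 2 with TMM (2.97%), 4 with DESeq2 (6.23%), 9 with 2 RUVr factors (9.37%), 5 without the 5 libraries (9.48%), 9 without the 9 (8.9%), 0 with the run term (0.00322%), and 0 to 3 without single libraries (0.756% to 5.28%), the most without DG Sal 4 (3.2%). For each region against the other 3, 0 as reported, the count was 1 with DESeq2 (1.16%). At an adjusted p under 0.05 it was 1 (3.01%), and then 2 with DESeq2 (6.42%), 6 with 2 RUVr factors (11.1%), 3 without the 5 libraries (8.95%), 4 without the 9 (8.27%) and 0 with the run term (0%). Of the ratios between regions, 1 passed as reported, 2 without the 5 libraries, 5 without the 9 and 1 to 3 without single libraries, the most without DG Sal 4 or SVZ Sal 1. Of the ratios for METH, 1 passed as reported, and 0 without the 9 libraries and 0 with header numbers as units and DG left out. The SVZ had a run of its own, so the run term cannot separate region from run in comparisons between regions that include the SVZ. The causes were not tested. Same-numbered METH and saline samples did not deviate together (correlations -0.772 to 0.397), so the numbers do not pair them; 3 of 16 samples correlated best with their own number. The stricter threshold has no counterpart in the test of differing effects, which gives no single fold.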
